A study of Mus musculus with 47 samples.

Results

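The genes described here are 10 genes of the mouse sperm tail out of the 23416 genes listed in all 10 count files: Odf1, Odf2, Odf3 and Odf4 of the outer dense fibre family, Akap3, Akap4 and Fscb of the fibrous sheath, Smcp of the mitochondrial capsule, and Oaz3 and Tcp11. They were chosen by name, and each was found once in every file. Several of them are on the study's own list of differentially expressed genes (DEGs), and that list comes from these libraries, so their direction in KO-F1 spermatozoa is not independent evidence.

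The mouse sperm tail is built around an axoneme of microtubules. Outer dense fibres run along the axoneme through the midpiece and principal piece, the fibrous sheath surrounds them in the principal piece, and a helix of mitochondria wraps them in the midpiece. The genes of these structures are transcribed in round spermatids, many of their mRNAs are stored and translated after transcription has stopped, and remnants of these mRNAs are carried in mature spermatozoa.

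The study asked whether loss of the Polycomb protein SCML2 in the father is followed by altered RNA in his descendants. Wild-type males sired the Ctrl-F1 offspring, and Scml2-KO males the KO-F1 offspring, by intracytoplasmic sperm injection (ICSI) of testicular sperm into oocytes of BDF1 females, and KO-F2 males descended from KO-F1 males. RNA-seq was done on spermatozoa of Ctrl-F1, KO-F1 and KO-F2 males and on liver of Ctrl-F1 and KO-F1 males, with 2 biological replicates per group. The males were 8 to 12 weeks of age, and the labels give the strain as BDF2 for both F1 groups and BDF3 for KO-F2. Because Scml2 is X-linked, KO-F1 males carry the wild-type Scml2 allele of their mothers, so the F1 groups differ in the genotype of the father and not in their own. Spermatozoa were motile cells of the cauda epididymis separated by swim-up, and their cDNA was amplified with SMART-Seq v4 before tagmentation. KO-F2 males came from natural mating of KO-F1 males, not from ICSI, with mothers of another strain than BDF1. Sons take their X chromosome from the mother, so KO-F2 males carry the Scml2 allele of those mothers. There was no Ctrl-F2 group. Generation, mode of conception, mother, strain, sequencing run and depth therefore cannot be told apart in the comparisons of KO-F2.

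Library totals were 1503733 to 2778171 counts in the 4 F1 sperm libraries, 8384266 and 11462105 in KO-F2 spermatozoa, and 11339729 to 14278900 in liver. A total of 3 counts, taken as the detection floor, was 1.08 to 2.00 CPM (counts relative to library size) in an F1 sperm library and at most 0.358 CPM in a KO-F2 library. The ribosomal RNA gene Rn45s took between 3.52% and 28.7% of the counts of a sperm library. The protamine and transition protein genes Prm1, Prm2, Prm3, Tnp1 and Tnp2, which mark spermatids and spermatozoa, were counted in all 6 sperm libraries and had 0 counts in liver. Spermatozoa carry little RNA, and transcripts of epididymal cells were also counted: Crisp1, a secreted protein of principal cells, led the principal cell markers in every sperm library. Of the same markers, Ces5a had 968 to 2903 counts in a sperm library. Others were low: Lcn5 had 0 to 21 counts, Lcn8 0 to 77 and Rnase10 7 to 50. The paper reports no expression of epididymal somatic markers in its F1 sperm RNA-seq. It used a marker set from an earlier publication, in RPKM, and the principal cell list used here was drawn up separately and is given in counts. The p-values come from models fitted across all genes. They set the difference between groups against a spread estimated from 2 samples per group, with information shared between genes.

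Sequence upstream of the genes was read from a table of RefSeq promoters (GRCm38.p6), in which 8 of the 10 genes matched an entry, the others being Odf1 and Oaz3. In the 150 bases before each annotated start, the cyclic AMP response element TGACGTCA was present in 0 of the 8 genes and in 1.36% of 32851 such windows, and its core TGACGT, which lies within it, in 0 of the 8 genes and 5.15% of windows. This element is the known site of CREM, a transcription factor of round spermatids. The related letters TGATGTCA, which were picked after the sequences had been seen, were present before Akap3, Akap4 and Fscb, all 3 fibrous sheath genes, and in 2.32% of windows. They lay on the strand of the gene, with their first base 22 bases before the start of Akap3, 35 before that of Akap4 and 51 before that of Fscb. Akap3 and Akap4 also shared the run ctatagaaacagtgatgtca of 20 bases, which ends with those letters and was found in 2 of the 32851 windows, those of these 2 genes. The longest run shared by any other pair of the 8 genes was 12 bases (Odf2 and Tcp11). The letters GTTGCC of the X-box, a motif bound by RFX factors of ciliated cells, were found before Odf3 and Tcp11 and in 6.64% of windows. TATAAA was found in 0 of the 8 genes and 7.57% of windows, and CCAAT before Odf2 and Fscb and in 24.5% of windows. The 8 genes have 14 windows in all, so counts of genes and shares of windows are not on the same base. By window, TGATGTCA was in 3 of the 14, GTTGCC in 3, CCAAT in 2 and the other motifs in 0. The motifs were searched on both strands, and so was the run of 20 bases over all windows. Runs shared by a pair of genes were sought on the strand of each gene only. A match is a description of the letters only. The 4 windows below are those of the 3 fibrous sheath genes, which share TGATGTCA, shown in capitals, and 1 of the windows of Odf2, which gave the 1 call of the main test, with CCAAT in capitals. They are written 5′ to 3′ on the strand of the gene: Akap3 chr6:126852948-126853097 (plus strand), Akap4 chrX:7067365-7067514 (plus), Fscb chr12:64474899-64475048 (minus) and Odf2 chr2:29889667-29889816 (plus).
Akap3: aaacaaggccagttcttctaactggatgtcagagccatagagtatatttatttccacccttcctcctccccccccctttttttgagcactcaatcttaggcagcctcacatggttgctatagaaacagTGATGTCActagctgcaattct
Akap4: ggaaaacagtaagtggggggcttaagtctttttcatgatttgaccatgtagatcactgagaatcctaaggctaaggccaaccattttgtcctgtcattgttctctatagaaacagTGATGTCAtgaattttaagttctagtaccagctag
Fscb: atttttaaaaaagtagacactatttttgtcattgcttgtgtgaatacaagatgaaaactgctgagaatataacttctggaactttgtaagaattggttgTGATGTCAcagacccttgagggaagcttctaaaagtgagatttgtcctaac
Odf2: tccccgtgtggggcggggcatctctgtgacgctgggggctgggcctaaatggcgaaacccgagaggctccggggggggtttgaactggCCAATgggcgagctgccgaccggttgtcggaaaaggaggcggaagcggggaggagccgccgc

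In Ctrl-F1 spermatozoa, the genes spanned more than 3 orders of magnitude in level per kilobase of exon, the scale on which genes of different length can be compared. Smcp, at 36214 ± 9040 CPM per kilobase (SD, n = 2), and Odf1, at 34888 ± 14967, stood at the top and did not differ beyond their spread. Oaz3 followed at 5620.4 ± 1294 and Tcp11 at 1276 ± 22.1. Akap4, at 424 ± 115, and Odf2, at 412 ± 68.0, overlapped each other. Odf4 was at 52.0 ± 2.83, Akap3 at 41.1 ± 11.1 and Fscb at 35.1 ± 11.3, with the values of Akap3 and Fscb overlapping, and Odf3 was lowest at 14.4 ± 10.0. The order was nearly the same in the other groups: Odf2 stood above Akap4 in KO-F1 and KO-F2 spermatozoa, and Fscb above Akap3 in KO-F2 spermatozoa, with overlapping values in KO-F1 for the first pair and in KO-F2 for the second. Together the 10 genes took 6.35% (95% Wilson interval 6.32% to 6.38%) and 8.10% (8.06% to 8.15%) of all counts in the Ctrl-F1 libraries. They took 4.11% (4.09% to 4.13%) and 3.19% (3.17% to 3.21%) in the KO-F1 libraries. In the KO-F2 libraries they took 6.87% (6.85% to 6.88%) and 7.43% (7.41% to 7.45%). Both KO-F1 shares were below the other 4. These intervals and the detection floor cover counting error only, since amplified reads are not independent molecules.

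**Figure D1:**
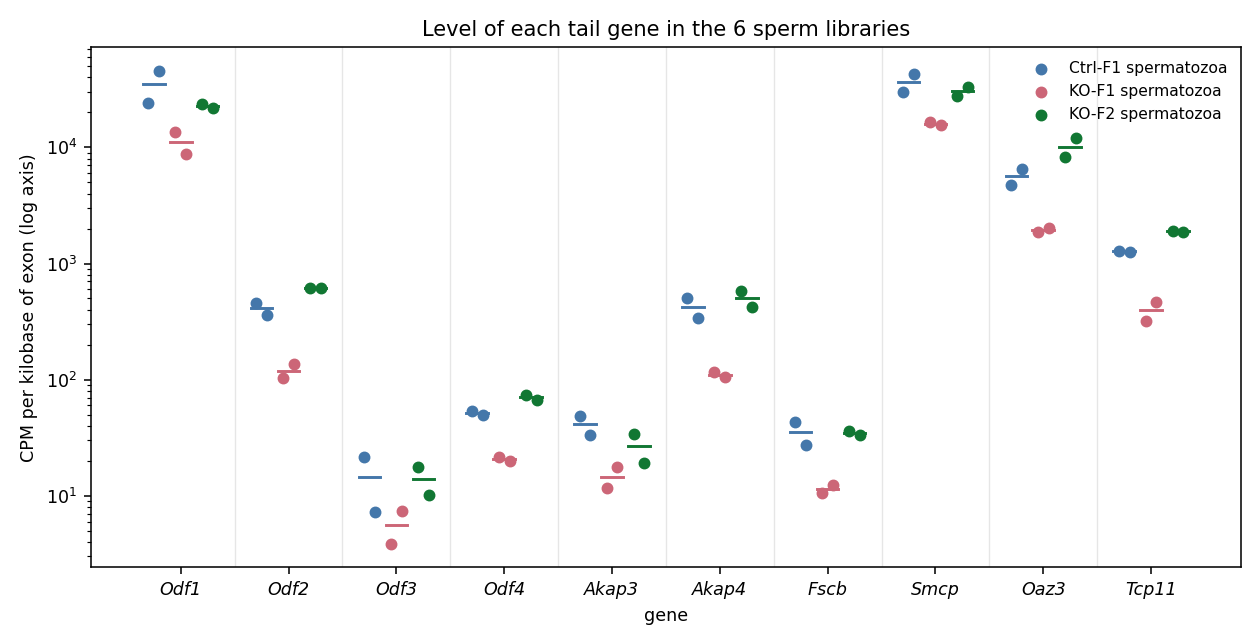
Level of each of the 10 tail genes in the 6 sperm libraries, in CPM per kilobase of exon on a log axis. Points are libraries, 2 per group, and bars are group means. The KO-F1 points lie below both Ctrl-F1 points for 9 genes, Odf3 being the exception, and below both KO-F2 points for all 10, on the scale of all genes.

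In liver, 8 of the 10 genes had 0 counts in all 4 libraries, which allows at most 0.265 CPM in a library. Oaz3 had 3, 1, 0 and 3 counts. Odf2, whose protein is also a component of the centriole of somatic cells, was counted 118 and 109 times in the Ctrl-F1 libraries and 120 and 82 times in the KO-F1 libraries of liver, or 8.39, 7.32, 9.79 and 7.59 CPM. The F1 groups overlapped (KO-F1 against Ctrl-F1 log2 fold change 0.15 ± 0.26 (SE), edgeR adjusted p = 0.889), and 0 of the 11505 genes tested in liver was called by edgeR (0%), 1083 had an unadjusted p under 0.05 and DESeq2 called 20, with Odf2 the only one of the 10 genes that passed the filter on low counts. Albumin and 4 other hepatocyte markers were high in liver and summed to at most 3.18 CPM in any sperm library.

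The first comparison asked whether the tail genes differed between KO-F1 and Ctrl-F1 spermatozoa. All 10 had a lower mean level in KO-F1, by 1.19 (Smcp) to 1.97 (Akap4) on the log2 scale, that is 2.28-fold to 3.92-fold, with TMM scaling. Scaled by library totals the range was 0.73 (Smcp) to 1.55 (Akap4) lower in KO-F1, in the same direction for each gene, and scaled to the other tail genes Odf3, Odf4 and Smcp were on the other side of 0. The median log2 fold change of the 10 genes was -1.59, beside 0.02 over all genes tested. The KO-F1 values lay below both Ctrl-F1 values for 9 of the 10 genes, beside 25.4% of all genes tested. All 10 genes passed the filter on low counts.

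None of the 10 passed the main test in this comparison. edgeR's quasi-likelihood test called 0 of the 10785 genes tested (0%), a call being a 2-fold or larger difference with an adjusted p below 0.01, and the adjusted p of the 10 genes ranged from 0.14 to 0.527. At an unadjusted p under 0.05, 9 of the 10 were lower, beside 10.6% of all genes. DESeq2 called 6 of the 10 lower (Odf1, Odf2, Akap4, Smcp, Oaz3 and Tcp11), beside 5.3% of the 5000 genes to which it gave an adjusted p. These calls rested on the number of libraries: DESeq2 called 2 of the 10 without Ctrl-F1 replicate 1 (Odf1 and Oaz3), 3 without Ctrl-F1 replicate 2 (Odf2, Akap4 and Tcp11), 2 without KO-F1 replicate 1 (Odf1 and Akap4) and 3 without KO-F1 replicate 2 (Odf2, Akap4 and Tcp11). Each gene was lower in KO-F1 in all of these fits. A fit without 1 library leaves a group of 1, which is assumed to vary like the other group.

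Odf1 (chr15:38219203-38226735, GRCm38.p6) encodes a main cysteine-rich protein of the outer dense fibres. It was at 26856 and 50245 CPM in the Ctrl-F1 libraries and at 14976 and 9685 CPM in the KO-F1 libraries. Both groups varied within themselves, and they did not overlap. The log2 fold change was -1.66 ± 0.56 (SE) with an edgeR adjusted p of 0.173, and DESeq2 gave an adjusted p of 0.000625. Odf2 (chr2:29889014-29931746), the coiled-coil fibre protein that binds ODF1, was at 2205 and 1744 CPM in Ctrl-F1 and at 492 and 649.5 CPM in KO-F1. The replicates of each group stood close to each other beside the gap between the groups. Its log2 fold change was -1.81 ± 0.42 (edgeR adjusted p = 0.14, DESeq2 adjusted p = 3.39e-05).

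The other 2 genes of the family were counted at low levels. Odf4 (chr11:68921835-68927081), a transmembrane protein of the tail, was at 59.9 and 55.5 CPM in Ctrl-F1 and 24.1 and 22.2 CPM in KO-F1, from 139, 66, 81 and 52 counts. The groups were apart, with a log2 fold change of -1.34 ± 0.51 and an edgeR adjusted p of 0.205. Odf3 (chr7:140847916-140850925), which despite its name is related to proteins of the microtubule lumen, was counted 46 and 8 times in the Ctrl-F1 libraries and 12 and 16 times in those of KO-F1, or 19.8, 6.72, 3.57 and 6.82 CPM. Its groups overlapped, and the difference of -1.40 ± 1.08 on the log2 scale was little larger than its error (edgeR adjusted p = 0.527). Without Ctrl-F1 replicate 1 it was -0.36. DESeq2 gave Odf3 no adjusted p.

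Of the fibrous sheath genes, Akap4 (chrX:7067515-7078609), the most abundant protein of the sheath and an anchor for protein kinase A, was at 1516 and 1027 CPM in Ctrl-F1 and at 346 and 316.5 CPM in KO-F1. Both KO-F1 values were well below the lower Ctrl-F1 value. Its log2 fold change of -1.97 ± 0.42 was the largest of the 10 in this comparison (edgeR adjusted p = 0.14, DESeq2 adjusted p = 1.16e-05). Akap3 (chr6:126853098-126874308), the anchoring protein that is laid down in the sheath before AKAP4, was at 154 and 105 CPM in Ctrl-F1 and at 36.9 and 55.4 CPM in KO-F1. Fscb (chr12:64471333-64474898), a calcium-binding sheath protein encoded by a single exon, was at 153.5 and 96.6 CPM in Ctrl-F1 and at 37.5 and 44.4 CPM in KO-F1. For both genes the groups were apart, while Ctrl-F1 replicate 1 stood above replicate 2. The log2 fold changes were -1.52 ± 0.47 for Akap3 and -1.64 ± 0.46 for Fscb, with edgeR adjusted p of 0.157 and 0.143 and DESeq2 adjusted p of 0.0392 and 0.0255.

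Smcp (chr3:92583866-92589073), a cysteine-rich protein of the capsule around the midpiece mitochondria, was at 27972 and 39965 CPM in Ctrl-F1 and at 15537 and 14583 CPM in KO-F1. The KO-F1 libraries stood close together and both lay below the controls, and the log2 fold change of -1.19 ± 0.50 was the smallest of the 10 (edgeR adjusted p = 0.246, DESeq2 adjusted p = 0.00495). Oaz3 (chr3:94433387-94436651), the testis form of ornithine decarboxylase antizyme, was at 4470.3 and 6208.5 CPM in Ctrl-F1 and at 1786 and 1927 CPM in KO-F1. The groups were far apart beside their spread, with a log2 fold change of -1.54 ± 0.43 (edgeR adjusted p = 0.143, DESeq2 adjusted p = 0.000211). An exon of Oaz3 overlaps an exon of Tdrkh on the opposite strand, and the sperm kit does not mark strand, so reads of these genes cannot be told apart there. Tcp11 (chr17:28066747-28080726), a testis protein needed for sperm motility, was at 2988 and 2916 CPM in Ctrl-F1 and at 746 and 1078 CPM in KO-F1. Its Ctrl-F1 libraries were nearly equal and both KO-F1 libraries lay well below them, with a log2 fold change of -1.71 ± 0.43 (edgeR adjusted p = 0.14, DESeq2 adjusted p = 7.15e-05).

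The other markers of the samples moved as follows. The 5 sperm nuclear protein genes summed to 76799.8 and 51065 CPM in Ctrl-F1 and 16377 and 11957 CPM in KO-F1, so they were lower in KO-F1 as well. The 7 principal cell markers summed to 20443 and 7833 CPM in Ctrl-F1 and 8507 and 11461 CPM in KO-F1, and the groups overlapped. Crisp1 was the largest of them in each of these 4 libraries, and Lcn5 had no more than 1 count in any. Cd52, a surface antigen of leukocytes that the epididymal epithelium also makes, was at 7029 and 3016 CPM in Ctrl-F1 and at 25397 and 10792 CPM in KO-F1. The 4 other leukocyte markers summed to 87.5 and 497 CPM in Ctrl-F1 and to 142 and 224 CPM in KO-F1. The clear cell markers (95.3 to 277 CPM), the myoid cell markers (34.9 to 116 CPM) and the basal cell markers (5.04 to 40.1 CPM) overlapped between the groups. The part of these cells in the lower tail gene levels was not tested. In bulk libraries such as these, fewer spermatozoa and less RNA per spermatozoon cannot be told apart.

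**Figure D2:**
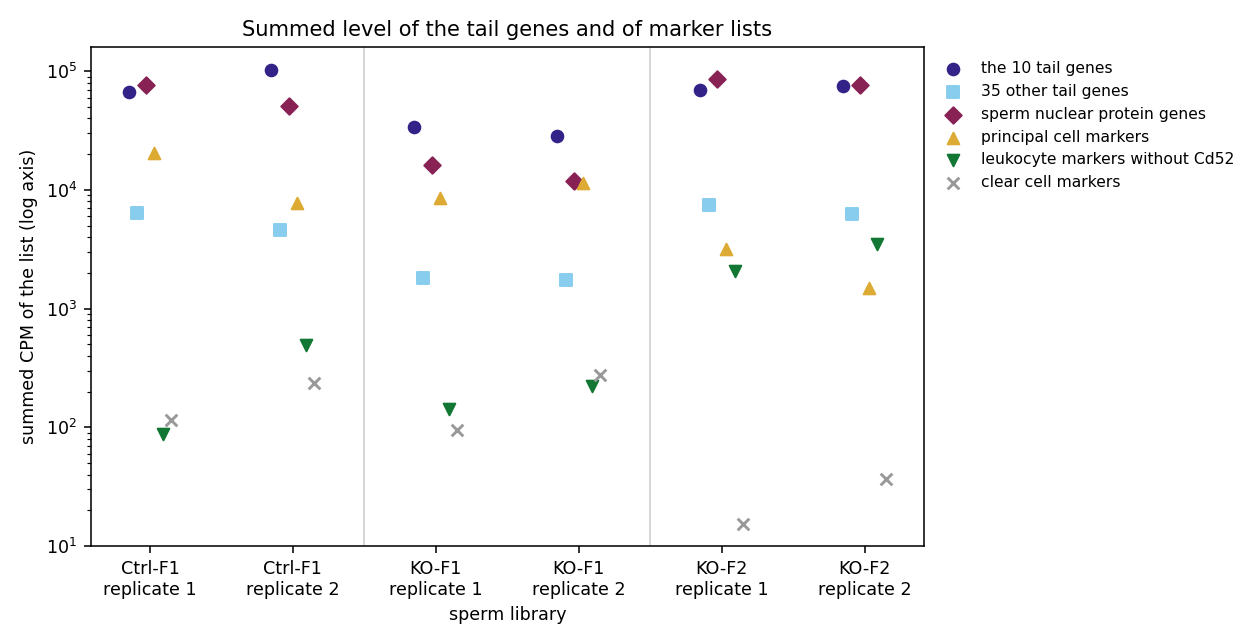
Summed CPM of the 10 tail genes, of 35 other tail genes and of marker lists in each sperm library, on a log axis. Each point is a library. The tail genes and the sperm nuclear protein genes are lowest in both KO-F1 libraries, and the leukocyte markers without Cd52 are highest in both KO-F2 libraries.

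The second pair of comparisons asked whether the levels in KO-F2 spermatozoa differed from those of Ctrl-F1 and of KO-F1. Against Ctrl-F1, the 10 genes stood on both sides of 0, between -0.61 (Akap3) and 0.87 (Oaz3) on the log2 scale, with a median of 0.12 beside 0.07 over all genes tested. This median was 0.595 without Ctrl-F1 replicate 1, 0.408 without KO-F2 replicate 2, 0.047 without Ctrl-F1 replicate 2, 0.007 without KO-F2 replicate 1 and -0.17 scaled to the other tail genes, and Akap3 ran from -1.06 to -0.22 with a library left out. Against KO-F1, all 10 had a higher mean level in KO-F2, by 1.06 (Akap3) to 2.55 (Oaz3), with a median of 1.86 beside 0.13 over all genes tested. Scaled by library totals the range was 0.64 (Akap3) to 2.14 (Oaz3) higher in KO-F2, in the same direction for each gene. Smcp was at 0.67 and Odf1 at 0.78 with that scaling. Odf2 rose, and it was the only one of the 10 that passed the main test in any comparison. The comparisons share libraries: both KO-F1 and KO-F2 were set against the same Ctrl-F1 libraries, and the KO-F1 libraries enter 2 of the 3 comparisons.

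Between KO-F2 and Ctrl-F1, edgeR called 0 of 13149 genes tested (0%), and 0 of the 10 genes reached an unadjusted p under 0.05, beside 14.9% of all genes. DESeq2 called 0 of the 10, beside 2.14% of the genes to which it gave an adjusted p. Both KO-F2 values lay above both Ctrl-F1 values for 4 genes, Odf2, Odf4, Oaz3 and Tcp11, beside 28.5% of all genes, and below them for 1, Odf1, beside 19.5%. These counts are near the shares over all genes. A p that misses the threshold does not show that the groups were alike: the SE of these differences was 0.31 to 0.72 on the log2 scale.

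Between KO-F2 and KO-F1, both KO-F2 values lay above both KO-F1 values for all 10 genes, beside 33.9% of all genes tested. edgeR called 1 of the 10, Odf2, beside 2.11% of 13517 genes called higher. At an adjusted p under 0.05, edgeR called 6 (Odf2, Odf4, Akap4, Fscb, Oaz3 and Tcp11), beside 14.2%. DESeq2 called 8, all but Odf3 and Akap3, beside 9.25% of genes called higher. When each of the 4 libraries was left out in turn, DESeq2 called 4 to 7 of the 10, with Odf2, Akap4, Oaz3 and Tcp11 among them each time, under the same assumption on the group of 1. The directions hold for the scalings that use all genes. Scaled to the other tail genes, Odf1, Odf3, Odf4, Akap3, Fscb and Smcp were below 0.

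Odf2 was at 2929 and 2961 CPM in KO-F2, above all 4 F1 libraries. The log2 fold change was 2.54 ± 0.37 (edgeR adjusted p = 0.00982) against KO-F1 and 0.59 ± 0.34 (edgeR adjusted p = 0.495) against Ctrl-F1. The call against KO-F1 lay close to the threshold and was lost without KO-F2 replicate 1, where the difference was still 2.54. It was also lost when libraries were scaled by their totals (2.13, edgeR adjusted p = 0.0171). Scaled to the other tail genes the difference was 0.46 ± 0.36 (edgeR adjusted p = 0.318). Odf1 was at 26319 and 24249 CPM in KO-F2, above both KO-F1 libraries and below both Ctrl-F1 libraries, with a log2 fold change of 1.22 ± 0.46 against KO-F1 (edgeR adjusted p = 0.103). Odf4 was at 82.0 and 74.8 CPM, higher than in any F1 library, with a log2 fold change of 1.94 ± 0.33 against KO-F1 (edgeR adjusted p = 0.0124). Odf3 was at 16.3 and 9.33 CPM, within the range of the Ctrl-F1 libraries, and its difference from KO-F1 of 1.5 ± 0.68 had an edgeR adjusted p of 0.156.

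The fibrous sheath genes overlapped Ctrl-F1 in KO-F2. Akap4 was at 1736 and 1279 CPM, with a log2 fold change of 2.37 ± 0.36 against KO-F1 (edgeR adjusted p = 0.0105). Akap3 was at 108 and 60.6 CPM, its higher value within the Ctrl-F1 range and its lower value nearer the KO-F1 libraries, with a log2 fold change of 1.06 ± 0.43 against KO-F1 (edgeR adjusted p = 0.12), which was 0.55 without KO-F2 replicate 1 and 1.48 without KO-F2 replicate 2. Fscb, at 128 and 119.7 CPM, lay between the Ctrl-F1 values, with a log2 fold change of 1.78 ± 0.32 against KO-F1 (edgeR adjusted p = 0.0143). None of the 3 passed the main test.

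Smcp was at 25892 and 31036 CPM in KO-F2 and overlapped Ctrl-F1, with a log2 fold change of 1.09 ± 0.44 against KO-F1 (edgeR adjusted p = 0.121). Oaz3 was at 7877 and 11399.8 CPM, above every F1 library, with log2 fold changes of 2.55 ± 0.42 against KO-F1 (edgeR adjusted p = 0.0114) and 0.87 ± 0.42 against Ctrl-F1 (edgeR adjusted p = 0.416). Tcp11 was at 4433 and 4312 CPM, also above every F1 library, with log2 fold changes of 2.43 ± 0.40 against KO-F1 (edgeR adjusted p = 0.0114) and 0.58 ± 0.34 against Ctrl-F1 (edgeR adjusted p = 0.499). Other values differed with the group too. Rn45s took 13.3% and 3.52% of the counts of the KO-F2 libraries, less than in any F1 library. In the KO-F2 libraries the leukocyte markers without Cd52 summed to 2062 and 3516 CPM, led by Lyz2, the lysozyme of macrophages, above every F1 library. The principal cell markers summed to 3191 and 1491 CPM, below every F1 library, and most of each sum was Crisp1 (2891 and 1280.5 CPM). Lcn5 had 8 and 21 counts in the KO-F2 libraries, or 0.706 and 2.545 CPM, and at most 1 count in an F1 library. The lower of these levels was under the detection floor of an F1 sperm library (1.08 to 2.00 CPM), so it could not be told from 0 there. Lcn8, Rnase9 and Rnase10 lay within the F1 range, and Crisp1, Aqp9 and Ces5a were below every F1 library. The clear cell markers were also below every F1 library, at 15.4 and 36.5 CPM, and Cd52 was at 3067 and 1434 CPM, below both KO-F1 libraries. The myoid cell markers summed to 26.6 and 42.8 CPM, below both KO-F1 libraries and overlapping Ctrl-F1. The basal cell markers summed to 15.8 and 32.0 CPM, within the range of the F1 libraries. Itga6 of that list was above every F1 library, at 10.15 and 27.26 CPM. The sperm nuclear protein genes summed to 86586 and 76508 CPM. The part of these cells and of Rn45s in the KO-F2 levels was not tested.

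**Figure D3:**
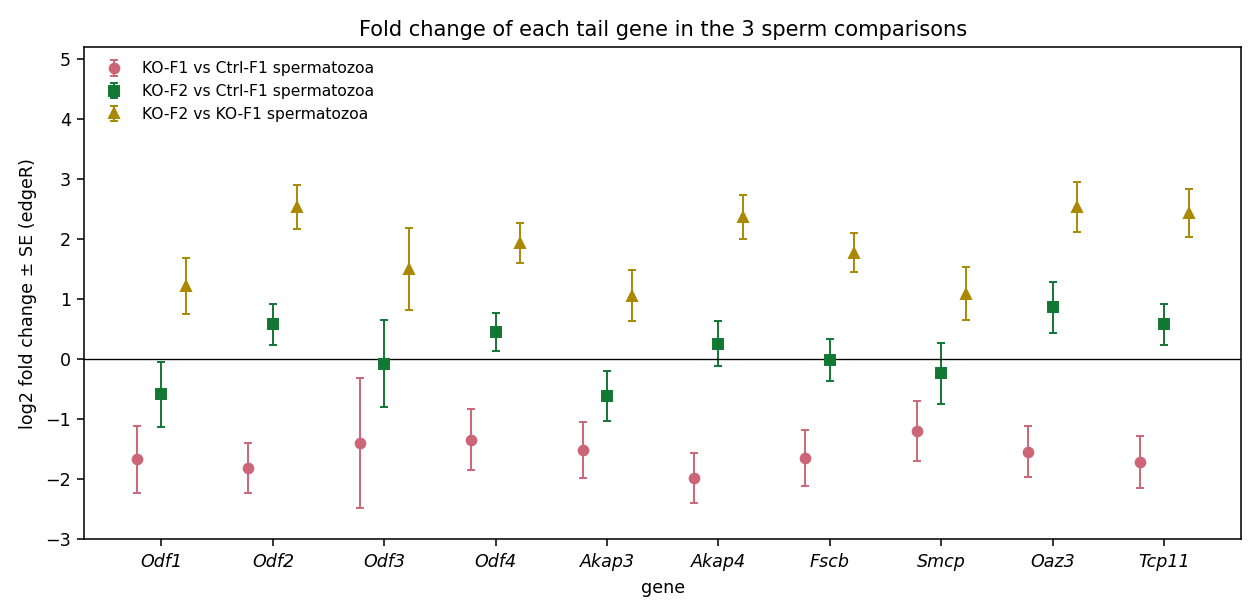
Log2 fold change of each tail gene in the 3 sperm comparisons, from edgeR with TMM scaling. Bars are ± 1 SE, and n = 2 libraries per group. KO-F1 lies below Ctrl-F1 for all 10 genes and KO-F2 above KO-F1 for all 10 on this scale of all genes (scaled to the other tail genes, 3 and 6 of them are on the other side of 0), while KO-F2 against Ctrl-F1 lies between -0.61 and 0.87.

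Ratios between 2 of the genes within a library do not depend on how libraries are scaled. The ratio of Tcp11 to Odf2 counts stayed between 1.36 and 1.67 in all 6 libraries. The ratio of Akap4 to Akap3 counts was 9.82 and 9.78 in the Ctrl-F1 libraries, 9.36 and 5.71 in those of KO-F1, and 16.1 and 21.1 in KO-F2, so both KO-F2 values were above all F1 values. The ratio of Odf1 to Odf2 counts was 12.2 and 28.8 in the Ctrl-F1 libraries, 30.4 and 14.9 in those of KO-F1, and 8.99 and 8.19 in KO-F2. The F1 groups overlapped for this ratio, and the KO-F2 libraries lay below every F1 library. The ratio of Oaz3 to Odf1 counts was 0.119 to 0.199 in the F1 libraries and 0.299 and 0.470 in KO-F2. These differences in ratio were not tested, and the KO-F2 libraries differ from the F1 libraries also in mode of conception, mother, run, strain and depth.

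The make-up of the summed counts of the 10 genes also does not depend on the scaling. Odf1 made up 40.5% and 49.1% of them in the Ctrl-F1 libraries, 44.1% and 34.1% in those of KO-F1, and 37.9% and 32.1% in KO-F2. Smcp made up 37.2% to 51.4% in the 6 libraries, with its highest value in KO-F1 replicate 2. Oaz3 made up 5.25% to 6.79% in the F1 libraries and 11.3% and 15.1% in KO-F2, and Tcp11 at most 4.50% in the F1 libraries and 6.38% and 5.71% in KO-F2. Odf2 made up 4.21% and 3.92% in KO-F2 and at most 3.32% in the F1 libraries. Between Ctrl-F1 and KO-F1, the shares of Odf1, Oaz3, Tcp11 and Odf2 overlapped, while Smcp made up 42.1% and 39.0% in the Ctrl-F1 libraries and 45.7% and 51.4% in those of KO-F1. These shares were not tested.

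**Figure D4:**
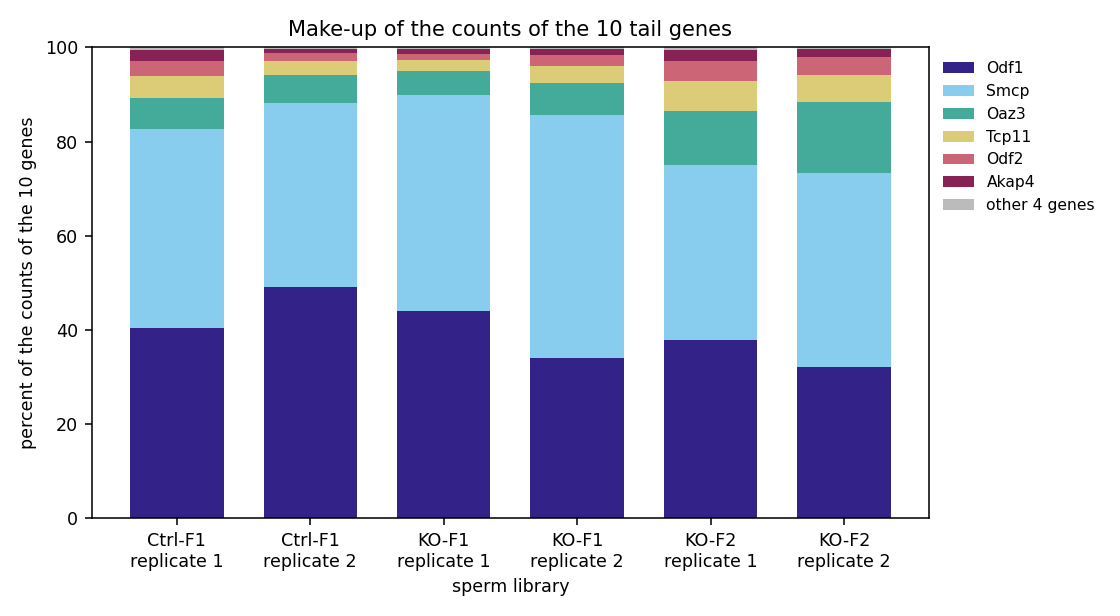
Share of each tail gene in the summed counts of the 10 genes, in percent, in each sperm library. Odf1 and Smcp make up most of the counts in every library, and Oaz3 reaches 11.3% and 15.1% in the KO-F2 libraries, above its 5.25% to 6.79% in the F1 libraries.

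Other genes of the tail were taken from lists of the same structures, 35 genes in the files. Between KO-F1 and Ctrl-F1 spermatozoa, 30 of them were tested, and 29 had a lower mean level in KO-F1. Their median was -1.45 on the log2 scale, beside -1.59 for the 10 genes and 0.02 over all genes. edgeR called 0 of the 30. At an unadjusted p under 0.05 there were 15, beside 19.5% of all genes in both directions, and DESeq2 called 8, all lower, beside 5.3%. When libraries were scaled to these tail genes, the median of the 10 genes was -0.15 for KO-F1 against Ctrl-F1, -0.17 between KO-F2 and Ctrl-F1 and -0.23 between KO-F2 and KO-F1. Relative to them in KO-F1, Akap4 was lowest at -0.50 ± 0.43 and Smcp highest at 0.19 ± 0.65 (SE).

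By structure, the 5 other sheath genes tested had a median log2 fold change of -1.90 between KO-F1 and Ctrl-F1, and all were lower. Gapdhs, the sperm form of the glycolytic enzyme that is bound to the sheath, was at 704 and 449 CPM in Ctrl-F1, 136 and 87.4 CPM in KO-F1, and 633 and 549 CPM in KO-F2. KO-F1 was below both other groups, with a log2 fold change of -2.40 ± 0.46 against Ctrl-F1 (edgeR adjusted p = 0.14) and 2.59 ± 0.36 for KO-F2 against KO-F1 (edgeR adjusted p = 0.00962). Ropn1l, a protein of the sheath and axoneme, had log2 fold changes of -1.90 ± 0.45 and 2.09 ± 0.38 in the same comparisons (edgeR adjusted p = 0.14 and 0.0145). The 7 other fibre genes tested were all lower in KO-F1, with a median of -1.32, and Klc3, a kinesin light chain that binds the fibres, was at -1.61 ± 0.65 and Spag4 at -1.24 ± 0.69 (edgeR adjusted p = 0.231 and 0.371). Both were higher in KO-F2 than in KO-F1, by 1.90 ± 0.43 and 2.24 ± 0.38 (edgeR adjusted p = 0.025 and 0.0122).

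Of the mitochondrial sheath genes, 6 of 6 had a lower mean level in KO-F1 than in Ctrl-F1, with a median of -1.45, and 6 of 6 higher in KO-F2 than in KO-F1, with a median of 2.62. Spata19, needed for mitochondria to adhere in the midpiece, was at 46.1 and 54.6 CPM in Ctrl-F1, 12.5 and 17.5 CPM in KO-F1, and 196 and 183 CPM in KO-F2. It rose 3.85 ± 0.37 on the log2 scale between KO-F1 and KO-F2 (edgeR adjusted p = 0.00911), and was above Ctrl-F1 by 1.93 ± 0.30 (edgeR adjusted p = 0.148, DESeq2 adjusted p = 0.000147), the 1 call of DESeq2 among the other tail genes in that comparison, beside 2.14% of genes. The 6 mitochondrial sheath genes each had a higher mean level in KO-F2 than in Ctrl-F1, with a median of 0.95. Gk2 and Tbc1d21, also of the mitochondrial sheath, rose by 2.98 ± 0.36 and 3.26 ± 0.38 against KO-F1 (edgeR adjusted p = 0.00911 for each), and Gk2 was at -2.01 ± 0.69 in KO-F1 against Ctrl-F1 (edgeR adjusted p = 0.177).

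The 5 connecting piece genes tested had a median of -1.65 for KO-F1 against Ctrl-F1, and the 6 tail assembly genes one of -1.30. Each had a lower mean level in KO-F1, and the groups were apart for 4 of the 5 and 5 of the 6, beside 25.4% of all genes. Spata6, which the head to tail junction needs, had log2 fold changes of -1.72 ± 0.43 (edgeR adjusted p = 0.14) and, between KO-F2 and KO-F1, 2.73 ± 0.39 (edgeR adjusted p = 0.0097). Cetn1, the centrin of spermatids, was at -2.01 ± 0.51 and 1.79 ± 0.34 (edgeR adjusted p = 0.14 and 0.0153). Spem1, which clears cytoplasm from the neck, was at -2.08 ± 0.42 and 2.65 ± 0.39 (edgeR adjusted p = 0.14 and 0.00982). Between KO-F2 and KO-F1, 7 of the 33 other tail genes tested passed the main test, all higher, beside 2.11% of all genes, among them Gapdhs, Spata19, Gk2, Tbc1d21, Spata6 and Spem1. With libraries scaled by their totals, edgeR called 0 genes in this comparison, so these calls were lost. DESeq2 called 18, all higher, beside 9.25% of genes. Of the annulus list, the septin symbols are written as dates in the files and were not used. The 1 gene analysed, Cdk16, was close to 0 beside its error in each comparison (0.30, 0.35 and 0.19 on the log2 scale, with SE of 0.33 to 0.46).

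**Figure D5:**
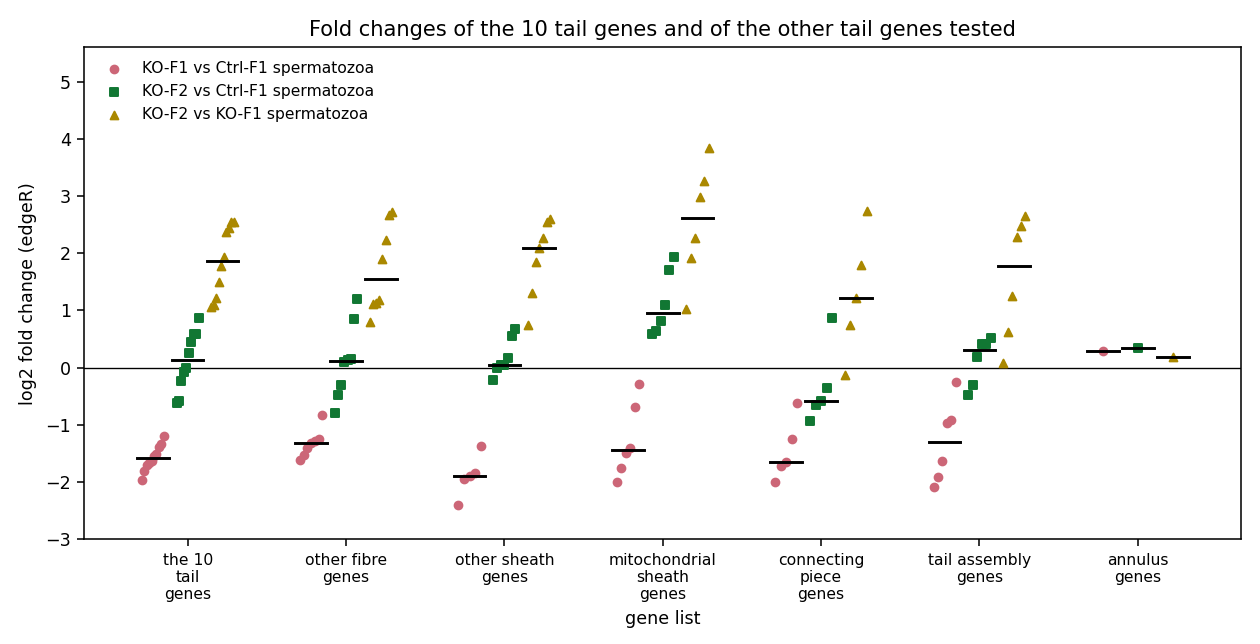
Log2 fold changes (edgeR) of the 10 tail genes and of the other tail genes tested, by list and comparison. Points are genes and black bars are list medians. On this scale of all genes, KO-F2 against KO-F1 has a positive median in every list, and KO-F1 against Ctrl-F1 a negative one in every list but the annulus list, which holds 1 gene. Scaled to the other tail genes, the median of the 10 genes is -0.15 for KO-F1 against Ctrl-F1 and -0.23 for KO-F2 against KO-F1.

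The genes whose pattern over the 6 sperm libraries was most like that of the 10 genes were H1fnt, Kcnmb4, Cdc42ep3, Spata20 and Spem1. Their Pearson correlation of log2(CPM + 1) with the mean of the 10 genes was 0.994 to 0.997 over 6 libraries, the highest among 2008 genes with a mean of at least 50 CPM. The libraries share 3 groups and differ in depth, so this is a description. H1fnt, a histone H1 variant of spermatids, was at 609 and 547 CPM in Ctrl-F1, 119.7 and 164 CPM in KO-F1, and 681 and 564 CPM in KO-F2. Of the 10 genes themselves, Akap4 followed the mean of the other 9 most closely (r = 0.983) and Odf1 (r = 0.742) and Odf3 (r = 0.745) least.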

How the data were processed

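RNA-seq counts of 10 libraries were analysed. The other 37 of the 47 samples of the series were not analysed here. The authors mapped reads to GRCm38 (mm10) with HISAT2 2.1.0 and deposited whole-number counts per gene from featureCounts. The annotation and the strand setting of the counting are not given in the sources used here, and KO-F2 libraries carry the name of a separate sequencing run. Of 23420 lines per file, 4 lines of 2 symbols listed more than once were removed. Liver libraries were made with a stranded mRNA kit and sperm libraries with an unstranded, amplified one.

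Levels are CPM, that is counts relative to the library size, scaled by TMM over the 6 sperm or the 4 liver libraries. Each comparison was fitted on its 2 groups with edgeR 4.0.16 (R 4.3.3, quasi-likelihood test, TMM, filterByExpr with a minimum count of 10 and a minimum total of 15). Calls needed a 2-fold difference or more together with an adjusted p (Benjamini-Hochberg, all genes tested) below 0.01. The SE of a log2 fold change is its size divided by the square root of F. DESeq2 1.42.0 was an alternative, with the same thresholds. The fits were tested on simulated data. Other alternatives were other scalings, filters, thresholds, thinned counts, a replicate block and each library left out. Labels say that replicates are biological.

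The 10 genes and all gene lists were chosen with earlier results of these data known. From each list of other tail genes, the text names the 2 genes with the smallest unadjusted p between KO-F1 and Ctrl-F1 spermatozoa, and any gene that edgeR called in a comparison. Tbc1d21 is named by the second condition, and 1 gene that the rule names is not reported here. The genes most like the 10 in pattern are the 5 with the highest Pearson correlation. Of 39 other tail genes on the lists, 35 were found in the files by symbol. The 2 septin genes of the annulus list, whose symbols the files write as dates, were not used here. Promoter windows and positions are from RefSeq on GRCm38.p6.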

Additional observations from a re-analysis of the deposited data

Results flagged for a closer look

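Odf2 was the only one of the 10 genes with a difference between groups that passed the main test directly. Its level in KO-F2 spermatozoa exceeded that in KO-F1 spermatozoa by 2.54 on the log2 scale, from libraries at 2929 and 2961 CPM against 492 and 649.5 CPM. Its edgeR adjusted p was 0.00982, while Akap4 (0.0105), Oaz3 (0.0114) and Tcp11 (0.0114) narrowly missed the threshold. The call of Odf2 was lost by library totals (a difference of 2.13, edgeR adjusted p = 0.0171) and without KO-F2 replicate 1 (a difference of 2.54). It was also lost scaled to the other tail genes (a difference of 0.46, edgeR adjusted p = 0.318). Groups held 2 libraries, so no library was tested for standing apart from its group.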

How the results depend on the processing

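With 2 libraries per group, counts of called genes depended on the test and the filter. Between KO-F1 and Ctrl-F1 spermatozoa, edgeR called 0 genes, DESeq2 390, no filter 113 and a filter of 10 counts in every library 200. Between KO-F2 and Ctrl-F1, 0 became 277 with DESeq2, 39 with no filter, 1 with 10 counts, 5 with the bias-adjusted test, 2 with all 3 sperm groups in 1 model, and 35 to 277 with a library left out. Between KO-F2 and KO-F1, 312 became 2058 with DESeq2, 0 with library totals, 2552 with no filter, 1805 with 10 counts, 2759 at an adjusted p under 0.05, 692 with thinned counts, 1475 with the bias-adjusted test, 198 with all 3 groups and 230 to 2898 with a library left out. Scaled to the other tail genes it was 4434, of which 46 were higher and 4388 lower. That scaling put the median log2 fold change over all genes at -1.95, beside 0.13 in the main fit, so these directions are relative to the tail genes. In liver, 0 became 20 with DESeq2, 25 with no filter, 1 with 10 counts, 1 at an adjusted p under 0.05, and 4 to 107 with a library left out. The cause was not tested. The bias-adjusted test, the model of all 3 groups, the crossed block and DESeq2 with libraries left out were chosen after seeing the data.

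The labels share replicate numbers only. Same-numbered samples deviated with a correlation of -0.00319, 0.148 and 0.0522 in the sperm comparisons (KO-F1 with Ctrl-F1, KO-F2 with Ctrl-F1, KO-F2 with KO-F1) and -0.176 in liver. A replicate block gave 0, 362, 819 and 2 calls in that order, and the crossed block 0 in liver.

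The median log2 fold change of the 10 genes was -1.14 by library totals and -0.15 scaled to other tail genes between KO-F1 and Ctrl-F1, and -1.79 to -1.47 with a library left out. Library totals moved the median of all genes from 0.02 to 0.46 there, and scaling to other tail genes moved it to 1.44. Between KO-F2 and Ctrl-F1 the median of the 10 genes was -0.17 scaled to other tail genes. It was 0.007 to 0.595 with a library left out (0.595 without Ctrl-F1 replicate 1, 0.408 without KO-F2 replicate 2). Between KO-F2 and KO-F1 it was 1.44 by library totals, 2.06 with 10 counts, -0.23 scaled to other tail genes, 1.68 with all 3 groups, and 1.77 to 2.00 with a library left out.

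Single genes reversed as follows, and the cause was not tested. Scaled to other tail genes, these were Odf3 (0.16), Odf4 (0.093) and Smcp (0.19) in KO-F1 against Ctrl-F1, Akap4 (-0.052) in KO-F2 against Ctrl-F1, and Odf1 (-0.86), Odf3 (-0.61), Odf4 (-0.15), Akap3 (-1.06), Fscb (-0.31) and Smcp (-0.98) in KO-F2 against KO-F1. In KO-F2 against Ctrl-F1, where Odf3 and Fscb were near 0, Odf3 was 0.036 by library totals, 0.079 with the replicate block, 0.20 with thinned counts and -0.58 to 1.01 with a library left out. Fscb was 0.13 by library totals, 0.043 with no filter, 0.09 with 10 counts, 0.033 with the replicate block, 0.031 with thinned counts and -0.27 to 0.43 with a library left out, and Smcp was -0.42 to 0.062 with a library left out. The call of Odf2 in KO-F2 against KO-F1 was lost by library totals (2.13, edgeR adjusted p = 0.0171) and scaled to other tail genes (0.46, edgeR adjusted p = 0.318). It was also lost without KO-F2 replicate 1, with a difference of 2.54. Calls were also gained in KO-F2 against KO-F1, for Akap4 in 11 of 15 alternatives, Odf4, Oaz3 and Tcp11 in 8 each, Fscb in 7, and Odf1 and Smcp in 1 each. In KO-F1 against Ctrl-F1, Akap4 was called with 10 counts in every library (edgeR adjusted p = 0.00699), and DESeq2 made 6 calls. Odf3 had 8 counts in Ctrl-F1 replicate 2, so the filter of 10 counts left it out of comparisons with Ctrl-F1.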
